A study of Arabidopsis thaliana with 8 samples.

Results

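The sulfur deficiency marker genes are 10 Arabidopsis thaliana loci whose transcripts accumulate when plants run short of sulfur, chosen by locus identifier: SDI1, SDI2, LSU1, LSU2, GGCT2;1, SULTR4;2, SHM7, APR1, APR3 and BGLU28. All 10 were present among the 27634 rows of the deposited tables. Their transcripts were measured by mRNA sequencing in rosette leaves of 24-day-old plants, which had spent 11 days on Murashige and Skoog plates and 13 days on soil. There were 4 libraries of DLK2-OE1, a line that overexpresses DLK2, and 4 libraries of the wild type (WT). The single comparison asks which leaf transcripts differ between DLK2-OE1 and WT. DLK2 encodes a hydrolase of the family of D14, the strigolactone receptor. DLK2-OE1 is a single line, and what DLK2 did cannot be told apart from anything else that sets the line off from WT. The sources used here do not name the promoter of its transgene. Nothing in the labels describes a sulfur treatment, and both genotypes were grown alike.

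Plants take up sulfate, activate it to adenosine 5′-phosphosulfate (APS), reduce APS to sulfite and then to sulfide, and join sulfide to O-acetylserine to give cysteine. When sulfate is scarce, genes for uptake, for release of stored sulfate from the vacuole and for sulfate reduction are induced. Genes that slow glucosinolate synthesis and break down glucosinolates and glutathione are induced with them. The transcription factor SLIM1 (EIL3) controls much of this response, and accumulation of O-acetylserine induces a core of the same genes, which makes these transcripts a common readout of leaf sulfur status.

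The library totals ran from 18097159 to 22139801 counts. Levels are given as CPM, counts scaled to the TMM-adjusted library size, and differences are log2 fold changes of DLK2-OE1 over WT from edgeR's quasi-likelihood test, with p-values adjusted over 18155 tested genes by the Benjamini-Hochberg method and a threshold of 0.05. Whether the replicates came from separate plants is not stated, and the p-values rest on the spread among these libraries alone, part of which may be technical. DLK2 itself averaged 138 ± 13.2 CPM in DLK2-OE1 and 73.1 ± 10.1 CPM in WT (SD, n = 4 each), and the log2 fold change was 0.92 (SE 0.12, edgeR adjusted p = 0.0178). That call was lost without DLK2-OE1 replicate 1, WT replicate 1 or WT replicate 3, at edgeR adjusted p-values of 0.0574, 0.067 and 0.0548. All 10 leaf mesophyll markers were detected in every library, at summed levels of 38400 to 81800 CPM in DLK2-OE1 and 63900 to 89200 CPM in WT. The 6 root markers summed to 17.9 to 34.5 CPM in DLK2-OE1 and 20.2 to 24.2 CPM in WT. Of these, SCR (16.2 to 21.9 CPM) and GL2 (0.733 to 14.2 CPM), which leaves also express, were detected in every library, and RHD6 and EXP7 had 0 counts in all libraries. DLK2-OE1 replicates 1 and 2 stood apart in markers of other cells. Their 8 xylem markers summed to 154 and 283 CPM, against 93.6 and 69.1 CPM in DLK2-OE1 replicates 3 and 4 and 26.1 to 64.7 CPM in WT. Their 6 phloem markers went the other way. These summed to 590 and 433 CPM, against 737 and 746 CPM in DLK2-OE1 replicates 3 and 4 and 765 to 870 CPM in WT. In such bulk samples, fewer cells of a type and less RNA per cell cannot be told apart.

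No marker gene differed between the genotypes past the adjusted threshold by edgeR, and LSU2 came nearest to it. Of the 9 that passed the filter on low counts, 0 passed the adjusted threshold by edgeR, where 3.69% of all tested genes were called, 2.12% as higher and 1.58% as lower in DLK2-OE1. The number of genes called varied with the library left out: it was 670 with all of them. When DLK2-OE1 replicate 1, 2, 3 or 4 was left out, 14, 232, 1368 and 2191 genes were called, and when WT replicate 1, 2, 3 or 4 was left out, 13, 118, 0 and 504. Without WT replicate 3, edgeR still gave 3599 genes an unadjusted p under 0.05. LSU2 and GGCT2;1 had an unadjusted p under 0.05, which is 2 of 9, while 26.3% of all tested genes did. DESeq2 called 1 of the 10, LSU2, which it called lower in DLK2-OE1. DESeq2 called 13.3% of all genes it tested in either direction, and 5.01% of all as lower in DLK2-OE1. By limma-voom 0 of the 9 passed, beside 1.46% of all tested genes, and LSU2 alone had an unadjusted p under 0.05. Fold changes were positive for 3 and negative for 6, with a median log2 fold change of -0.19, beside 0.00 over all tested genes. The levels of the genotypes did not overlap for 1 of the 9, LSU2, where 15.2% of all tested genes showed no overlap and 7.29% showed none with DLK2-OE1 lower.

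Levels between genes are compared here on the length-scaled FPKM values, as the authors deposited them. SHM7, APR3 and APR1 were the most abundant marker transcripts, at 82.0 ± 44.0, 66.2 ± 40.2 and 64.4 ± 42.5 FPKM in DLK2-OE1 and 60.9 ± 28.5, 62.6 ± 23.2 and 48.0 ± 18.5 FPKM in WT (SD, n = 4 each). The order of these 3 was within their spread in both genotypes. SDI2 followed at 16.0 ± 9.07 FPKM in DLK2-OE1 and 16.0 ± 5.13 FPKM in WT. SDI1, SULTR4;2, LSU1, GGCT2;1 and LSU2 lay between 3.65 and 7.41 FPKM in DLK2-OE1 and between 4.48 and 11.9 FPKM in WT, and their order was not separated by the spread between libraries. By mean FPKM, LSU2 had rank 9 of the 10 in DLK2-OE1 and rank 5 in WT. BGLU28 was the least abundant by far, at 0.136 ± 0.0562 FPKM in DLK2-OE1 and 0.237 ± 0.0926 FPKM in WT.

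**Figure D1:**
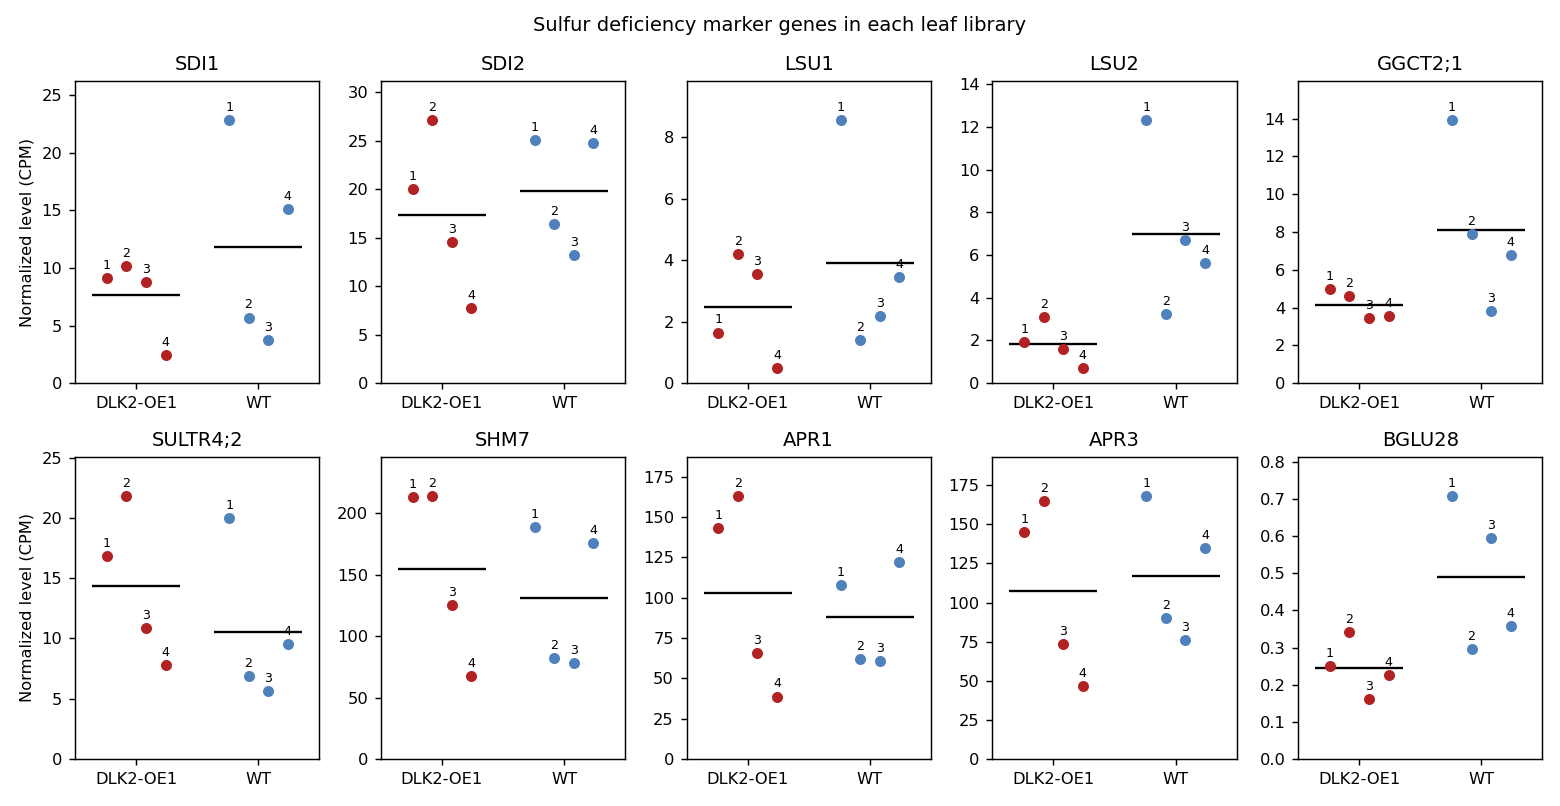
Normalized level in CPM of each of the 10 marker genes in every library, DLK2-OE1 left and WT right, with replicate numbers beside the points and black bars for the genotype means. The 2 genotypes overlap in every panel except LSU2, and replicate 4 of DLK2-OE1 and replicates 2 and 3 of WT lie low in most panels.

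Windows from 250 bases before to 50 bases after the annotated start of each gene were searched for 2 short motifs on both strands. GAGAC is the core of the sulfur-responsive element of SULTR1;1, and CATTGAA is a stretch of the UPE box described upstream of genes induced by sulfur deficiency. GAGAC occurred in 4 of the 10 marker genes (SDI1, LSU2, GGCT2;1 and BGLU28), beside 32.8% of 27443 protein-coding genes. CATTGAA occurred in 1 of the 10, GGCT2;1, beside 6.3% of genes, and both together in that gene, beside 2.09% of genes. The motifs do not overlap each other, and a match in a window is a description and not a binding site. The 200 bases before the start are shown for GGCT2;1, with both motifs, for SDI1, with one, and for APR3, among the most abundant of the 10, with none. They read 5′ to 3′ on the gene's strand, with either motif or its reverse complement in capitals, from the TAIR10.1 genome of RefSeq.
GGCT2;1 (chr5:9164885-9165084, minus strand): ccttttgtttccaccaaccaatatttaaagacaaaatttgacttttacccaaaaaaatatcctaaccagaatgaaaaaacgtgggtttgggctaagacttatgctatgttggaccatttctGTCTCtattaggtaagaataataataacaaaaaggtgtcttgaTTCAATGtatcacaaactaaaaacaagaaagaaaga
SDI1 (chr5:19807854-19808053, minus strand): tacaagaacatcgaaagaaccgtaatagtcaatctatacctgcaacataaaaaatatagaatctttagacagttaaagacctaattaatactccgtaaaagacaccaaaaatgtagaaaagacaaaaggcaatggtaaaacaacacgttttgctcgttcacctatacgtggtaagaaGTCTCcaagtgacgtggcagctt
APR3 (chr4:11659168-11659367, minus strand): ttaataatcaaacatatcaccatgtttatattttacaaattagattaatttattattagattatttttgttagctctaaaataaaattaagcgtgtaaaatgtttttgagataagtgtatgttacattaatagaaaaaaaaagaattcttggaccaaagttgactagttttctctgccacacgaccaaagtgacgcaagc
In GGCT2;1 the GAGAC match starts 79 bases and the CATTGAA match 36 bases before the annotated start, both on the opposite strand. In SDI1 one GAGAC match starts 23 bases before it on the opposite strand, and another lies after the start and outside the printed window.

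The genes for APS reductase, the plastid enzyme that reduces APS to sulfite and exerts much of the control over the pathway, differed by less than the spread between libraries. APR1 (AT4G04610, plus strand of chromosome 4, 2324878 to 2327064 in TAIR10.1, 3 exons) had 143, 163, 65.8 and 38.7 CPM in DLK2-OE1 replicates 1 to 4 and 108, 62.0, 61.0 and 122 CPM in WT replicates 1 to 4. DLK2-OE1 thus held both the highest 2 and the lowest library, and the WT libraries lay inside that range. Its log2 fold change was 0.22 (SE 0.44, 95% interval -0.76 to 1.21, edgeR adjusted p = 0.781). APR3 (AT4G21990, minus strand of chromosome 4, 11657008 to 11659167) had 145, 165, 73.7 and 46.9 CPM in DLK2-OE1 and 168, 90.0, 75.8 and 135 CPM in WT. It showed the same split of libraries, with 2 high and 2 low in each genotype. The log2 fold change of APR3 was -0.12 (SE 0.40, 95% interval -1.03 to 0.78, edgeR adjusted p = 0.874). The third gene of the family, APR2, which is not a member, had 195, 163, 109 and 88.0 CPM in DLK2-OE1 and 301, 159, 168 and 173 CPM in WT, and its log2 fold change was -0.53 (SE 0.29, edgeR adjusted p = 0.274). Sequence shared within the family could move reads between these genes. APR1 and APR3 each overlap a gene on the opposite strand, by 21 and 27 bases, and it is not known whether counting used strand.

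SULTR4;2 (AT3G12520, minus strand of chromosome 3, 3967816 to 3972135) encodes a transporter in the vacuolar membrane that releases stored sulfate. Its level was 16.8, 21.8, 10.9 and 7.79 CPM in DLK2-OE1 replicates 1 to 4 and 20.0, 6.88, 5.66 and 9.54 CPM in WT replicates 1 to 4. In WT replicate 1 alone it exceeded 10 CPM, so the WT mean leaned on that library. SULTR4;2 had the largest positive log2 fold change of the 9, 0.46 (SE 0.43, 95% interval -0.52 to 1.43), and did not pass (edgeR adjusted p = 0.529). Without WT replicate 1 the value was 0.96, at an edgeR adjusted p of 0.188. Its paralog SULTR4;1 averaged 34.3 ± 7.16 CPM in DLK2-OE1 and 32.8 ± 6.46 CPM in WT (SD, n = 4 each), and the log2 fold change of SULTR4;1 was 0.06 (SE 0.18, edgeR adjusted p = 0.851). SULTR4;2 overlaps the opposite-strand genes AT3G02545 by 223 bases and AT3G12510 by 7 bases, and the same-strand gene AT3G02535 by 7 bases. AT3G12510 had 12 to 31 counts per library. AT3G02545 and AT3G02535 were not among the counted genes, so any reads from them cannot be told apart here.

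SHM7 (AT1G36370, minus strand of chromosome 1, 13696042 to 13698739, 4 exons), also known as MSA1, belongs to the serine hydroxymethyltransferase family and is needed for normal S-adenosylmethionine levels. It had 213, 214, 125 and 67.2 CPM in DLK2-OE1 and 189, 81.8, 78.4 and 176 CPM in WT. These correspond to counts of 4254, 4985, 2325 and 1192 in DLK2-OE1 and of 3200, 1665, 1578 and 3442 in WT, so the gaps between replicates were far larger than counting error. The log2 fold change was 0.24 (SE 0.41, 95% interval -0.70 to 1.17, edgeR adjusted p = 0.747).

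GGCT2;1 (AT5G26220, minus strand of chromosome 5, 9162969 to 9164884) encodes a γ-glutamyl cyclotransferase that degrades glutathione in the cytosol. Its level was 4.96, 4.63, 3.43 and 3.55 CPM in DLK2-OE1 and 13.9, 7.91, 3.83 and 6.79 CPM in WT. WT replicates 1, 2 and 4 lay above all DLK2-OE1 libraries, while WT replicate 3 lay below DLK2-OE1 replicates 1 and 2. The log2 fold change was -0.96 (SE 0.35, 95% interval -1.74 to -0.18), with an unadjusted p of 0.0214 and an edgeR adjusted p of 0.126. Leaving out WT replicate 1 took it to -0.58 (edgeR adjusted p = 0.262).

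LSU2 (AT5G24660, minus strand of chromosome 5, 8443279 to 8444101, 1 exon) and LSU1 (AT3G49580, minus strand of chromosome 3, 18374908 to 18375940) encode small plant proteins with a coiled coil that bind many partners. LSU2 gave counts of 39, 72, 30 and 13 in DLK2-OE1 and 208, 66, 135 and 110 in WT, which are 1.95, 3.09, 1.61 and 0.733 CPM in DLK2-OE1 and 12.3, 3.24, 6.71 and 5.61 CPM in WT. Every DLK2-OE1 library lay below every WT library, but the gap between the nearest 2 was small. DLK2-OE1 replicate 2 had an exact 95% Poisson interval of 2.42 to 3.89 CPM and WT replicate 2 one of 2.51 to 4.12 CPM, so counting error alone covers that gap. The log2 fold change was -1.89 (SE 0.48, 95% interval -2.97 to -0.81), a 3.71-fold higher level in WT, with an unadjusted p of 0.00324 and an edgeR adjusted p of 0.059. LSU2 therefore missed the threshold in edgeR. It passed with DESeq2 (adjusted p = 0.00224) and in edgeR without DLK2-OE1 replicate 4 (adjusted p = 0.048), and over all 17 alternative settings its adjusted p ran from 0.00224 to 0.158.

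LSU1 had 1.65, 4.20, 3.54 and 0.508 CPM in DLK2-OE1 and 8.55, 1.42, 2.19 and 3.47 CPM in WT, from 9 to 145 counts per library. DLK2-OE1 held the lowest library and WT the highest, and the other libraries were interleaved. Its log2 fold change was -0.64 (SE 0.67, 95% interval -2.15 to 0.88, edgeR adjusted p = 0.573), and 0.07 without WT replicate 1. LSU3, the neighbour and relative of LSU1, had 2.35, 4.16, 2.68 and 0.395 CPM in DLK2-OE1 and 5.96, 2.16, 2.48 and 7.65 CPM in WT, and its log2 fold change was -0.91 (SE 0.61, edgeR adjusted p = 0.364). LSU4, which lies beside LSU2, had 0 to 8 counts in DLK2-OE1 and 5 to 16 in WT and was not tested. Sequence shared between these relatives could move reads among them.

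SDI1 (AT5G48850, minus strand of chromosome 5, 19805437 to 19807853, 4 exons) encodes a repressor of aliphatic glucosinolate synthesis that acts on the regulator MYB28, and SDI2 (AT1G04770, minus strand of chromosome 1, 1336274 to 1337849, 4 exons) is its close relative. SDI1 had 9.11, 10.2, 8.79 and 2.48 CPM in DLK2-OE1 and 22.8, 5.70, 3.78 and 15.1 CPM in WT. WT libraries lay both above and below the DLK2-OE1 replicates 1 to 3, and the log2 fold change was -0.62 (SE 0.58, 95% interval -1.93 to 0.69, edgeR adjusted p = 0.525). It was -0.10 without WT replicate 1. SDI2 had 20.0, 27.1, 14.6 and 7.73 CPM in DLK2-OE1 and 25.1, 16.4, 13.2 and 24.8 CPM in WT, and its log2 fold change was -0.19 (SE 0.35, 95% interval -0.98 to 0.61, edgeR adjusted p = 0.771). SDI2 overlaps the opposite-strand gene VAMP726 by 431 bases, and VAMP726 had 4 to 33 counts per library, against 137 to 632 for SDI2.

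BGLU28 (AT2G44460, plus strand of chromosome 2, 18346306 to 18350026), a β-glucosidase that releases sulfur from glucosinolates under deficiency, was close to undetected. Its counts were 5, 8, 3 and 4 in DLK2-OE1 and 12, 6, 12 and 7 in WT, and it did not pass the filter. In the settings that kept it, its log2 fold change was -0.97 by edgeR with no filter (adjusted p = 0.252), -0.98 by DESeq2 (adjusted p = 0.3) and -1.29 by edgeR without DLK2-OE1 replicates 1 and 2 together (adjusted p = 0.397).

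**Figure D2:**
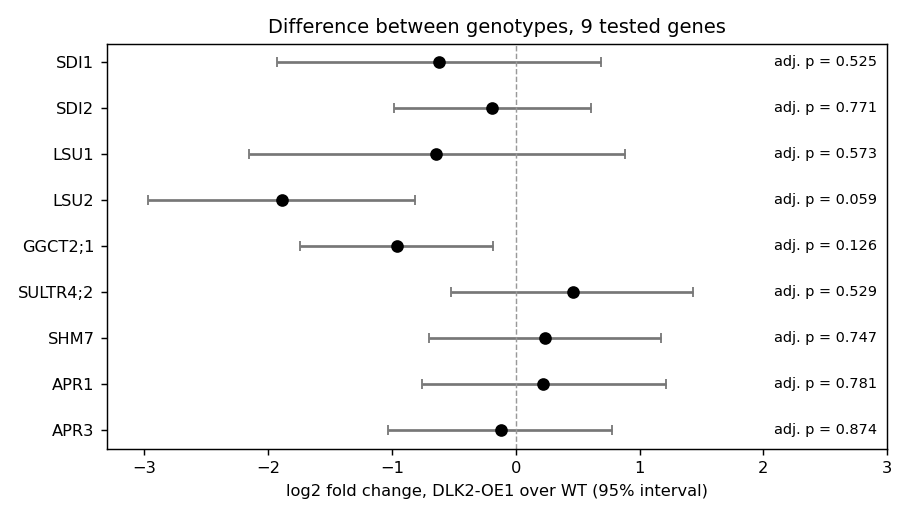
Log2 fold change of DLK2-OE1 over WT for the 9 tested marker genes, with 95% intervals from edgeR and adjusted p-values at the right. The intervals of LSU2 and GGCT2;1 exclude 0 before adjustment for the number of genes tested, and no adjusted p is below 0.05.

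The intervals show how much the design could not see. For APR1, APR3, SHM7, SDI2 and SULTR4;2 they reached from -1.03 at the lowest to 1.43 at the highest, so a 2-fold difference lay inside the interval in one direction for APR1, APR3, SHM7 and SULTR4;2. SDI1 and LSU1 had wider intervals still.

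The marker genes varied more between libraries of one genotype than most genes did. The standard deviation of log2 CPM within genotypes ran from 0.56 for GGCT2;1 to 1.18 for LSU1, with a median of 0.74 over the 9, beside 0.23 over all tested genes. For each of the 9, at least 88.6% of tested genes had a smaller within-genotype spread, pooled over both genotypes. Taken by genotype, the share for GGCT2;1 was 53.3% in DLK2-OE1 and 96.0% in WT, so its spread in DLK2-OE1 was ordinary. For the other tested marker genes it was at least 88.1% in each genotype. LSU1 and LSU2 had the lowest counts of the 9, and SHM7, APR1 and APR3 the highest. Among the 3700 genes with a mean of at least 50 CPM, a limit set after seeing the data, 99.4%, 99.7% and 99.3% varied less than SHM7, APR1 and APR3.

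The direction of this variation was shared. In DLK2-OE1 replicate 2 all 9 genes stood above their genotype mean, with a median deviation of 0.78 log2 units, and 8 of the 9 had their highest DLK2-OE1 level there, beside 38.0% of all tested genes. In DLK2-OE1 replicate 4 all 9 stood below it, with a median of -1.05, and 8 of 9 were at their lowest, beside 29.1% of all tested genes. Replicates 1 and 3 lay between, with medians of 0.34 and -0.17. In WT replicate 1 all 9 genes stood above the WT mean, with a median deviation of 0.91, and 8 of 9 were at their highest, beside 28.1% of all tested genes. In WT replicate 3, 8 of 9 stood below the mean with a median of -0.56, and 7 of 9 were at their lowest, beside 19.5%. WT replicates 2 and 4 had medians of -0.44 and 0.28. The median deviation over all tested genes lay between -0.01 and 0.03 in every library. These counts describe 9 genes known to respond together and are given with no test.

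The library order of the marker genes was set beside markers of other cells. In DLK2-OE1 the libraries with the highest marker gene levels, replicates 1 and 2, also had the most xylem (154 and 283 CPM), shoot meristem (41.0 and 65.9 CPM) and dividing cell (59.1 and 75.3 CPM) marker transcripts, with the lowest mesophyll sums (58100 and 38400 CPM). The corresponding sums in DLK2-OE1 replicates 3 and 4 were 93.6 and 69.1 CPM for xylem, 9.17 and 9.76 CPM for shoot meristem, 24.2 and 18.4 CPM for dividing cells and 64800 and 81800 CPM for mesophyll. Not every mesophyll marker followed its sum. In DLK2-OE1 replicate 1, RBCS1A, RBCS1B and RBCS3B lay above replicate 3, and the other mesophyll markers lay below replicates 3 and 4. Phloem sums were lower in DLK2-OE1 replicates 1 and 2 (590 and 433 CPM) than in replicates 3 and 4 (737 and 746 CPM). Of the 6 phloem markers, 0 were called by edgeR, and fold changes were positive for 1, SEOR1, and negative for 5. By edgeR, 3 of 8 tested xylem markers, 3 of 4 tested meristem markers and 4 of 6 tested dividing cell markers were called higher in DLK2-OE1, beside 2.12% of all tested genes. The 4 tested meristem markers were STM, KNAT1, KNAT2 and KNAT6. Of the 2 not tested, CLV3 had 0 counts in all libraries. WUS had 1 count in DLK2-OE1 replicate 1, 1 in WT replicate 2 and 0 in the other libraries. In WT the order was mixed. WT replicate 1, the highest for the sulfur deficiency genes, had the lowest xylem sum (26.1 CPM) and dividing cell sum (7.55 CPM). WT replicate 4, the next highest for these genes, had the highest xylem sum (64.7 CPM) and the lowest mesophyll sum (63900 CPM) of WT. The part of these cell types in the marker gene levels was not tested.

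**Figure D3:**
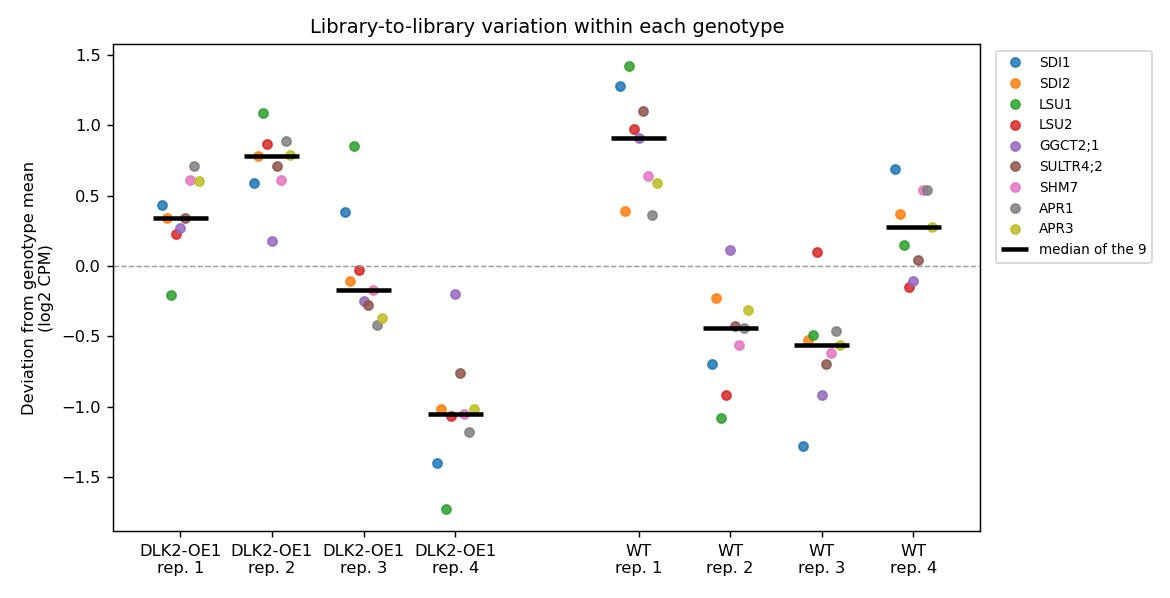
Deviation of each of the 9 tested marker genes from its genotype mean (log2 CPM) in every library, DLK2-OE1 left and WT right, with black bars for the median of the 9. All 9 points lie above 0 in DLK2-OE1 replicate 2 and WT replicate 1 and below 0 in DLK2-OE1 replicate 4.

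With DLK2-OE1 replicates 1 and 2 left out together, edgeR called 0 of the 10 marker genes, with 3 at an unadjusted p under 0.05. Of all 18319 genes tested in that setting, 60 were called and 2696 had an unadjusted p under 0.05. The log2 fold changes of APR1, SHM7 and SULTR4;2 were then -0.74, -0.44 and -0.15, against 0.22, 0.24 and 0.46 with all libraries. APR1 was also at -0.10 without DLK2-OE1 replicate 2 alone and at 0.00 without DLK2-OE1 replicate 1 alone. In none of the 17 alternative settings did any of these 3 genes pass.

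The profile shared by the 9 genes was the median of their standardized log2 CPM in each of the 8 libraries. Of the 9, APR3 and SDI2 lay nearest to it, at mean absolute differences of 0.141 and 0.152 standard deviations, and GGCT2;1 farthest at 0.678. The profile was drawn from these same 9 genes, so their closeness to it is partly built in. Among 6638 other genes with a symbol and a mean of at least 5 CPM, whose median difference was 1.07, the nearest were MLP43 (0.234), MSRB5 (0.261), SCPL9 (0.270), SERAT1;1 (0.293), FBH2 (0.302) and BTI1 (0.305). MSRB5, a methionine sulfoxide reductase gene, had 49.2, 59.0, 38.4 and 25.3 CPM in DLK2-OE1 and 74.0, 29.5, 30.2 and 45.0 CPM in WT. SERAT1;1, which encodes a serine acetyltransferase that makes O-acetylserine, had 58.4, 58.8, 55.0 and 48.8 CPM in DLK2-OE1 and 59.9, 57.2, 54.3 and 59.4 CPM in WT. The measure compares shape and not size, and SERAT1;1 followed the profile over a far narrower range than the marker genes. The search covered 6638 genes over 8 libraries, so close matches may arise without any relation.

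Genes of sulfur metabolism outside the 10, regulators and close relatives of the marker genes were examined in 7 lists with 67 genes, of which 57 were tested. The relatives were listed by family and not by a part in sulfur metabolism, and not all of the regulators act on sulfur alone. By edgeR 0 of the 57 passed, 10 had an unadjusted p under 0.05 (7 higher and 3 lower in DLK2-OE1), and the median log2 fold change was 0.12. DESeq2 called 2 of the 62 it tested, SULTR3;5 and MYB29, beside 13.3% of all genes, and limma-voom called 0 of 57, beside 1.46% of all genes. Without DLK2-OE1 replicate 3 edgeR called SULTR3;5, and without DLK2-OE1 replicate 4 it called SULTR2;1, SULTR3;4, SULTR3;5 and MYB29. In these settings it called 1368 of 18312 and 2191 of 18435 genes in all. The share with an unadjusted p under 0.05 was 17.5%, below the 26.3% of all tested genes.

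Among sulfate transporters 8 of 11 were tested and all 8 had positive log2 fold changes, with a median of 0.45, though 0 passed and 3 had an unadjusted p under 0.05. On the log2 CPM scale, they deviated from the genotype mean by a median of 0.19 and 0.59 in DLK2-OE1 replicates 1 and 2, the libraries with the most xylem and meristem marker transcripts, and -0.25 and -0.55 in DLK2-OE1 replicates 3 and 4. The part of those cell types in the transporter levels was not tested. SULTR3;5, which in roots aids the movement of sulfate towards the shoot, had 11.4, 17.7, 6.43 and 5.08 CPM in DLK2-OE1 and 2.42, 2.60, 0.795 and 4.18 CPM in WT. The genotypes did not overlap, as was so for 3 of the 57 tested genes of the 7 lists and for 15.2% of all tested genes. The log2 fold change of SULTR3;5 was 2.03 (SE 0.51, 95% interval 0.87 to 3.18, edgeR adjusted p = 0.0586). Its adjusted p ran from 0.00209 to 0.325 over the alternatives and was 0.0262 at the lowest when 1 library was left out. Without DLK2-OE1 replicates 1 and 2 together the log2 fold change was 1.21, at an edgeR adjusted p of 0.325. SULTR1;1, the high-affinity root transporter induced by sulfur deficiency, was at 0 counts in all libraries.

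Sulfate activation and reduction genes gave 0 of 10 called, with 7 positive and 3 negative fold changes and a median of 0.12. APK4, an APS kinase gene that feeds sulfation, had the largest difference at 2.99 ± 0.44 CPM in DLK2-OE1 and 1.91 ± 0.411 CPM in WT (SD, n = 4 each, log2 fold change 0.64, SE 0.23, edgeR adjusted p = 0.121). Cysteine synthesis genes gave 0 of 8 called and 0 at an unadjusted p under 0.05, with a median of 0.13. In that list OASC, a mitochondrial O-acetylserine (thiol) lyase gene, differed most, with 0.29 on the log2 scale (SE 0.19, edgeR adjusted p = 0.343). Glutathione genes gave 0 of 6 called and a median of -0.11. There GSH1, which encodes the first enzyme of glutathione synthesis, averaged 356 ± 64.7 CPM in DLK2-OE1 and 283 ± 20.8 CPM in WT (SD, n = 4 each, log2 fold change 0.33, SE 0.15, edgeR adjusted p = 0.188). Methionine and S-adenosylmethionine genes gave 0 of 9 called and a median of 0.13, with MS2, a methionine synthase gene, at 0.42 (SE 0.30, edgeR adjusted p = 0.395).

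Of 9 tested regulators 0 passed, with 8 positive fold changes and a median of 0.12. SLIM1 had nearly equal levels of 15.5 ± 1.71 CPM in DLK2-OE1 and 15.1 ± 0.847 CPM in WT (SD, n = 4 each); the log2 fold change was 0.04 with a 95% interval of -0.19 to 0.27 (edgeR adjusted p = 0.831). Its level also varied little between libraries in which the marker genes varied several-fold. MYB29, which activates aliphatic glucosinolate genes, had 28.5, 34.3, 11.2 and 10.2 CPM in DLK2-OE1 and 9.55, 4.96, 6.01 and 12.7 CPM in WT. DLK2-OE1 replicates 3 and 4 lay below WT replicate 4, and the log2 fold change was 1.35 (SE 0.45, edgeR adjusted p = 0.107). Without DLK2-OE1 replicates 1 and 2 together it was 0.38, at an edgeR adjusted p of 0.68. Among close relatives of the marker genes 0 of 7 tested passed, with a median of -0.06.

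**Figure D4:**
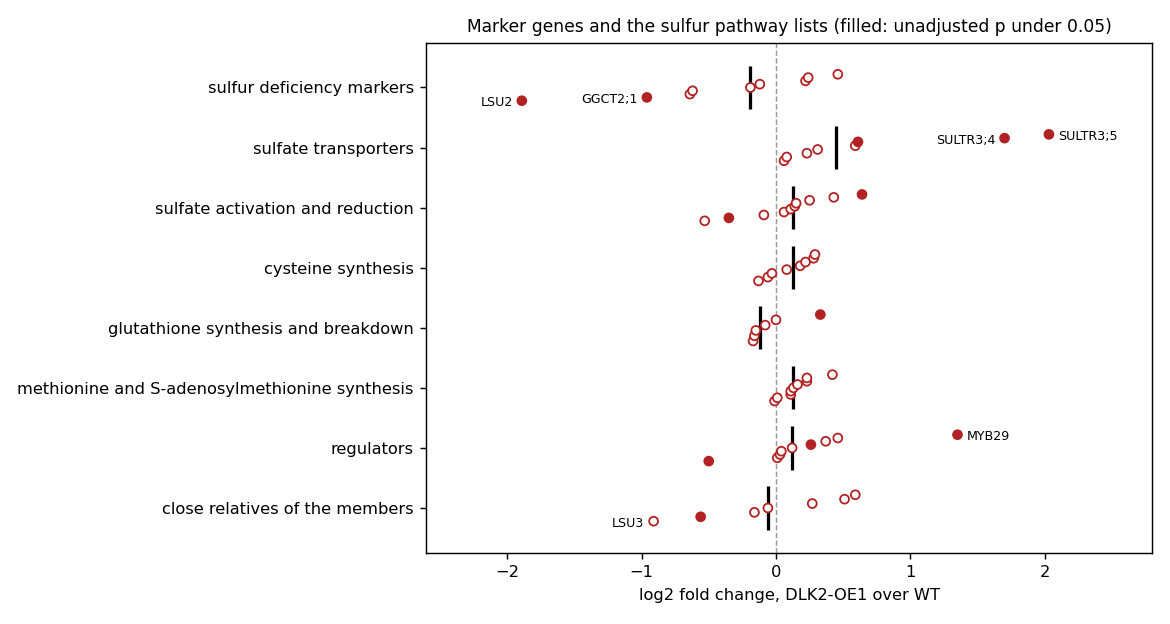
Log2 fold change of DLK2-OE1 over WT for the 9 marker genes and 57 other tested genes (sulfur metabolism, regulators and close relatives) by list, with black bars for list medians and filled points for an unadjusted p under 0.05. LSU2 lies lowest at -1.89 and SULTR3;5 highest at 2.03, and most genes of synthesis lie close to 0.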

How the data were processed

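Messenger RNA was enriched with oligo(dT) beads and sequenced on an Illumina NovaSeq, per the labels' protocols. Per the submitters' processing notes, the tools included RSEM, HISAT2, StringTie 1.3.1, edgeR, DESeq2, Bowtie2 2.2.8 and fastp 0.18.0, with TAIR10 as the build, and no roles are stated. The sources used here do not say whether counting used strand. The authors deposited whole-number counts and FPKM values per gene and library. FPKM was used for levels between genes and for alternatives.

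Counts were fitted with edgeR 4.0.16 in R 4.3.3 (filterByExpr by genotype, TMM, robust quasi-likelihood test, Benjamini-Hochberg adjustment over 18155 genes). Standard errors were taken as the size of the log2 fold change over the square root of F. Library deviations used log2 CPM with a prior count of 2. Of 27634 rows, 26719 matched a TAIR10.1 locus tag and 218 were unnamed assembled loci. Positions and promoters come from RefSeq TAIR10.1, since the files hold no coordinates. On simulated counts for 18061 genes the fit of DLK2-OE1 against WT made 186 calls, 11 of them false, and found 79% of genes changed 2-fold and 96% of genes changed 4-fold. The changed genes were drawn from those with a mean of at least 5 CPM, and each gene was simulated on its own with its fitted dispersion. These shares are averages over such genes. They do not give the power for the marker genes, which varied more between libraries than most genes and varied together.

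The members and lists were chosen with earlier results of these data known. Outside the 10 genes and DLK2, the text names from each pathway list the gene with the largest absolute log2 fold change where none passed, the relatives LSU3, LSU4, APR2 and SULTR4;1, SLIM1, and the 6 genes nearest to the shared profile. SULTR1;1, SULTR2;1, SULTR3;4 and VAMP726 were named after their values were seen. The same holds for every cell type marker named in the text, among them SCR, GL2, RHD6, EXP7, CLV3, WUS, STM, KNAT1, KNAT2, KNAT6 and SEOR1. Alternatives were DESeq2 1.42.0 and its size factors, limma 3.58.1 (voom, and log2 FPKM with pseudocounts of 0.1 and 1), other count filters, a replicate block and left-out libraries. Intervals cover counting error only where they are Poisson intervals.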

Additional observations from a re-analysis of the deposited data

Results flagged for a closer look

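APR2, the third APS reductase gene, stood out in WT replicate 1 at 301 CPM, while the other WT libraries had 159 to 173 CPM. The gap to the nearest library was 0.898 of the WT range, above Dixon's 95% critical value for 4 libraries. This was 1 of 56 combinations of gene and genotype examined, and chance marks about 1 in 20. WT replicate 1 was also the library in which all 9 tested sulfur deficiency marker genes stood above their WT mean.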

How the results depend on the processing

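Over 17 alternatives the 9 tested marker genes gave 153 log2 fold changes, of which 142 kept their direction and their side of the threshold, 2 newly passed and 9 changed sign; the 17 other named genes gave 289, of which 258 kept both, 3 no longer passed, 5 newly passed and 23 changed sign. The cause was not tested. The number of genes called was 670, against 245 with a replicate block, 2781 with DESeq2, 265 with limma-voom, 355 and 288 with limma on log2 FPKM (pseudocounts 0.1 and 1, which moved the median of all genes to 0.134 and 0.121), 60 without DLK2-OE1 replicates 1 and 2 together, and 0 to 2191 with 1 library left out. Marker genes called numbered 1 with DESeq2 and 0 to 1 with 1 library left out. Genes called in the sulfur metabolism, regulator and relative lists numbered 2 with DESeq2 and 0 to 4 with 1 library left out. Deviations of same-numbered libraries correlated at -0.0292, 0.0617, 0.123 and -0.0951 across genes. Those of differently numbered libraries correlated at -0.205 to 0.24. Such correlations over all tested genes cannot exclude a pairing that affects only some of them. The block called 0 marker genes and 0 other sulfur genes, but so did the main fit, so these counts do not bear on pairing.

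Without DLK2-OE1 replicates 1 and 2 together the sign changed for SULTR4;2 (-0.15), SHM7 (-0.44), APR1 (-0.74), OASC (-0.03), MS2 (-0.24), SULTR4;1 (-0.19) and FBH2 (-0.22). With limma on log2 FPKM it changed for MLP43 (0.05), MSRB5 (0.13), SERAT1;1 (0.08) and BTI1 (0.02) at both pseudocounts. With 1 library left out, values ran from -0.49 to 0.05 for SDI2, -1.02 to 0.07 for LSU1, -0.10 to 0.49 for APR1, -0.41 to 0.12 for APR3, -0.06 to 0.17 for SULTR4;1, -0.03 to 0.09 for SLIM1, -0.25 to 0.04 for MLP43, -0.25 to 0.30 for MSRB5 and -0.10 to 0.13 for FBH2. LSU2 stayed negative, at -2.26 to -1.48. Counts limit BGLU28, LSU1, LSU2 and LSU4 most.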
